A study of Mus musculus with 9 samples.

Results

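The genes of the platelet-derived growth factor (PDGF) receptors and ligands were followed in RNA sequencing libraries of a mesenchymal stromal cell line from mouse bone marrow. The members were the receptor genes Pdgfra and Pdgfrb and the ligand genes Pdgfa, Pdgfb and Pdgfc, found by gene symbol, 5 of the 21959 genes in the deposited expression table. They had been selected on measured values of these libraries, with their difference in FPKM between 2 of the groups, TNBS PF and control PF, already known. Their values in that comparison, and in that of the same TNBS PF libraries with PBS, are therefore given as a description, with no test. Mesenchymal stromal cells are adherent supporting cells of the marrow. The labels mark the line SV40, the name of a virus whose large T antigen is used to immortalise cells. All cells grew in DMEM/F12 with 10% fetal bovine serum, and then spent 24 h in 1 of 3 conditions, with 3 libraries each. The control PF group received peritoneal interstitial fluid of control mice. The TNBS PF group received the same kind of fluid from mice treated for 3 days with TNBS, a hapten used to induce colitis. The PBS group received phosphate-buffered saline and no fluid. The sources used here do not give the genotype, strain, sex or age of the mice, or say whether their fluids were pooled. Nothing in the labels says that the 3 libraries of a group came from separate cultures or separate fluids, so the p-values cover the spread among these libraries alone, and that spread may be technical.

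PDGFs are secreted dimers that drive the growth and movement of mesenchymal cells, and serum is a classic source of them. PDGF-A and PDGF-C act through receptor alpha, PDGF-B binds both receptors, and PDGF-D acts mainly through receptor beta. Both receptors are tyrosine kinases, which dimerise when bound, phosphorylate themselves, signal through phosphoinositide 3-kinase, Src family kinases and the Ras to ERK cascade, and are then internalised. They are widely used as surface markers of stromal cells in marrow and other tissues.

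In the annotation GENCODE M21 of the mouse build GRCm38 (mm10), Pdgfra (ENSMUSG00000029231) spans chromosome 5 from 75152292 to 75198215 on the plus strand. Pdgfa (ENSMUSG00000025856) lies on the same chromosome, from 138976014 to 138997370 on the minus strand. Pdgfc (ENSMUSG00000028019) spans 81036416 to 81214040 of chromosome 3 on the plus strand, and Pdgfb (ENSMUSG00000000489) spans 79995874 to 80014977 of chromosome 15 on the minus strand. The sequences before the transcription starts of Pdgfra, Pdgfa and Pdgfc are shown because these 3 genes differed between TNBS PF and the other groups, Pdgfra in one direction and Pdgfa and Pdgfc in the other. They were taken from the RefSeq promoter table of GRCm38.p6, which matched 3 of the 5 members, and run 5′ to 3′ on the strand of the gene. Capitals mark a match to 1 of 6 promoter motifs searched on both strands. For Pdgfra the window is chr5:75152001-75152250 on the plus strand, for Pdgfc it is chr3:81036166-81036415 on the plus strand, and for Pdgfa the stretch is chr5:138994282-138994398 on the minus strand, the 117 bases before the more downstream of 2 RefSeq starts.
Pdgfra: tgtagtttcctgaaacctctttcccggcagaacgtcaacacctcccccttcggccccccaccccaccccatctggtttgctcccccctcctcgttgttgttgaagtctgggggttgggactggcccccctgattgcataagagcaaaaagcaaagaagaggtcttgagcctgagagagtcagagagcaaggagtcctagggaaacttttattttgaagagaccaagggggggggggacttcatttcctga
Pdgfc: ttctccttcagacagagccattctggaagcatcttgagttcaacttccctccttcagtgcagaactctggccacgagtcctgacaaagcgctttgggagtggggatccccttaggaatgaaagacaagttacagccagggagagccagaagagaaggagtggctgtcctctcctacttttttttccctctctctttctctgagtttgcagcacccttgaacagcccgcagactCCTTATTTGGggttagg
Pdgfa: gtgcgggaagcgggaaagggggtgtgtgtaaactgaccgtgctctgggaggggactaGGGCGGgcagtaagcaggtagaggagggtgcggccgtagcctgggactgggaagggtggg

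The motifs were the CCAAT box (CCAAT), the GC box (GGGCGG), the TATA box (TATAAA), the AP-1 motif (TGANTCA), the Egr motif (GCGNGGGCG) and the CArG box, the sequence bound by serum response factor. A GC box can overlap an Egr motif. The Pdgfra window held none of the 6. The Pdgfc window held 1 CArG box, which began at position -17, counting back from -1 at the base before the start. Of 32851 RefSeq promoter windows of the same 250 bases, 1.47% held a CArG box. The Pdgfa stretch held 1 GC box, at position -60, a motif found in 32.7% of the windows, and the window before the other Pdgfa start held 2. CCAAT boxes were found in 33.8% of all windows, TATA boxes in 12.4%, AP-1 motifs in 6.75% and Egr motifs in 4.70%. The GC content was 54.4% for the Pdgfra window, 50.8% for the Pdgfc window, and 66.4% and 72.4% for the windows of the 2 Pdgfa starts, against a median of 52.4% over all windows. These matches describe the letters only.

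Expression was given as FPKM, fragments per kilobase of exon scaled by library depth, so comparing levels between genes rests on the exon length used for each. The libraries held 17.9 to 25.6 M assigned fragments, as recovered from the values, and the 3 TNBS PF libraries were the deepest, with 22.9 to 25.6 M against 17.9 to 21.5 M in the others. At these depths 1 fragment in 1 kb of exon is worth an FPKM of 0.0391 to 0.056. The stromal label was checked with 14 markers. Of these, 12 had a mean of at least 1 FPKM, and Lepr and Lum did not. The summed level of the 14 was 1863 to 1871 FPKM with control PF, 1754 to 1788 with TNBS PF and 1867 to 1937 with PBS, so it was lowest in the TNBS PF libraries. Single markers moved both ways. Of the 12 tested, 2 rose and 4 fell with TNBS PF against control PF, where 10.6% of all tested genes were called. Cd44 rose by 0.21 and Ly6a fell by 0.32 (limma, adjusted p = 0.000456 and 0.000219). Among other cell types, the leukocyte list summed to between 1.69 and 2.65 FPKM in any library, with S100a9 at 0. The endothelial list summed to at most 0.294 FPKM, with Tie1 and Emcn at 0. Its sum was 0.135 to 0.159 FPKM with control PF and 0.160 to 0.259 with TNBS PF. Platelets carry PDGF, and the summed platelet list was 1.93 to 2.05 FPKM with TNBS PF, 2.35 to 3.08 with control PF and 2.25 to 2.45 with PBS. Gp6 was at 0 and 4 of the 6 platelet genes had a mean under 1 FPKM. Of the 2 tested, 0 were called with TNBS PF against control PF, beside 10.6% of all tested genes. The mural list, in which Acta2 made up most of the sum, gave 227 to 245 FPKM with TNBS PF, 196 to 203 with control PF and 265 to 271 with PBS, and 9 of its 11 genes had a mean under 1 FPKM, with Abcc9 and Higd1b at 0. The mesothelial list summed to 47.7 to 52.3 FPKM with TNBS PF, against 40.3 to 41.6 with control PF and 42.4 to 44.5 with PBS. In that list 7 of 10 genes had a mean under 1 FPKM, Muc16 was at 0 and Upk3b did not exceed 0.0395 FPKM. Its 3 tested genes all rose with TNBS PF against control PF, Krt19 by 0.59, Krt18 by 0.28 and Msln by 0.24 (limma, adjusted p = 0.0154, 0.0497 and 0.00430). The Krt19 call was lost without control PF library 2 or 3 or TNBS PF library 1 or 2 (adjusted p from 0.0566 to 0.0703) or with no filter on low values (adjusted p = 0.0823). That of Krt18 was lost in 14 of 18 alternatives, among them without control PF library 1 or 2 or any 1 TNBS PF or PBS library (adjusted p from 0.0527 to 0.148). Depth and the platelet, stromal, mural, mesothelial and endothelial sums thus differed between TNBS PF and control PF. They did so in the same libraries as the receptors and ligands, and their part in the results was not tested.

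All 5 members passed the filter of at least 1 FPKM in at least 3 libraries, as did 10537 genes in all. Over the 9 libraries Pdgfrb had the highest mean level, 17.4 FPKM, above 71.2% of tested genes. Pdgfra followed at 11.5 FPKM (above 59.0%), then Pdgfa at 9.84 (53.9%) and Pdgfc at 8.12 (48.0%). Pdgfb was the lowest at 1.34 FPKM, above 4.62% of tested genes, and was under 1 FPKM in 1 of the 9 libraries. The counts behind the levels were 1775 to 2350 fragments a library for Pdgfrb, 2217 to 2773 for Pdgfra, 487 to 890 for Pdgfa and 640 to 1218 for Pdgfc. Pdgfb had 75 to 180. Pdgfra thus had more fragments than Pdgfrb but a lower FPKM, at exon lengths of 10024 and 5478 bases. The order of levels between genes, here and within each group, rests on these lengths.

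The order of the genes changed between groups. With control PF and with PBS every library had Pdgfrb highest, then Pdgfra, Pdgfa, Pdgfc and Pdgfb, and the ranges of neighbouring genes did not overlap. With TNBS PF all 3 libraries had Pdgfa, at 10.7 to 11.2 FPKM, above Pdgfra, at 9.31 to 9.74 FPKM. Pdgfc, at 8.98 to 9.35 FPKM with TNBS PF, overlapped Pdgfra there. The plot of levels by library shows both receptors lower, and Pdgfa and Pdgfc higher, with TNBS PF than in any other library.

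**Figure D1:**
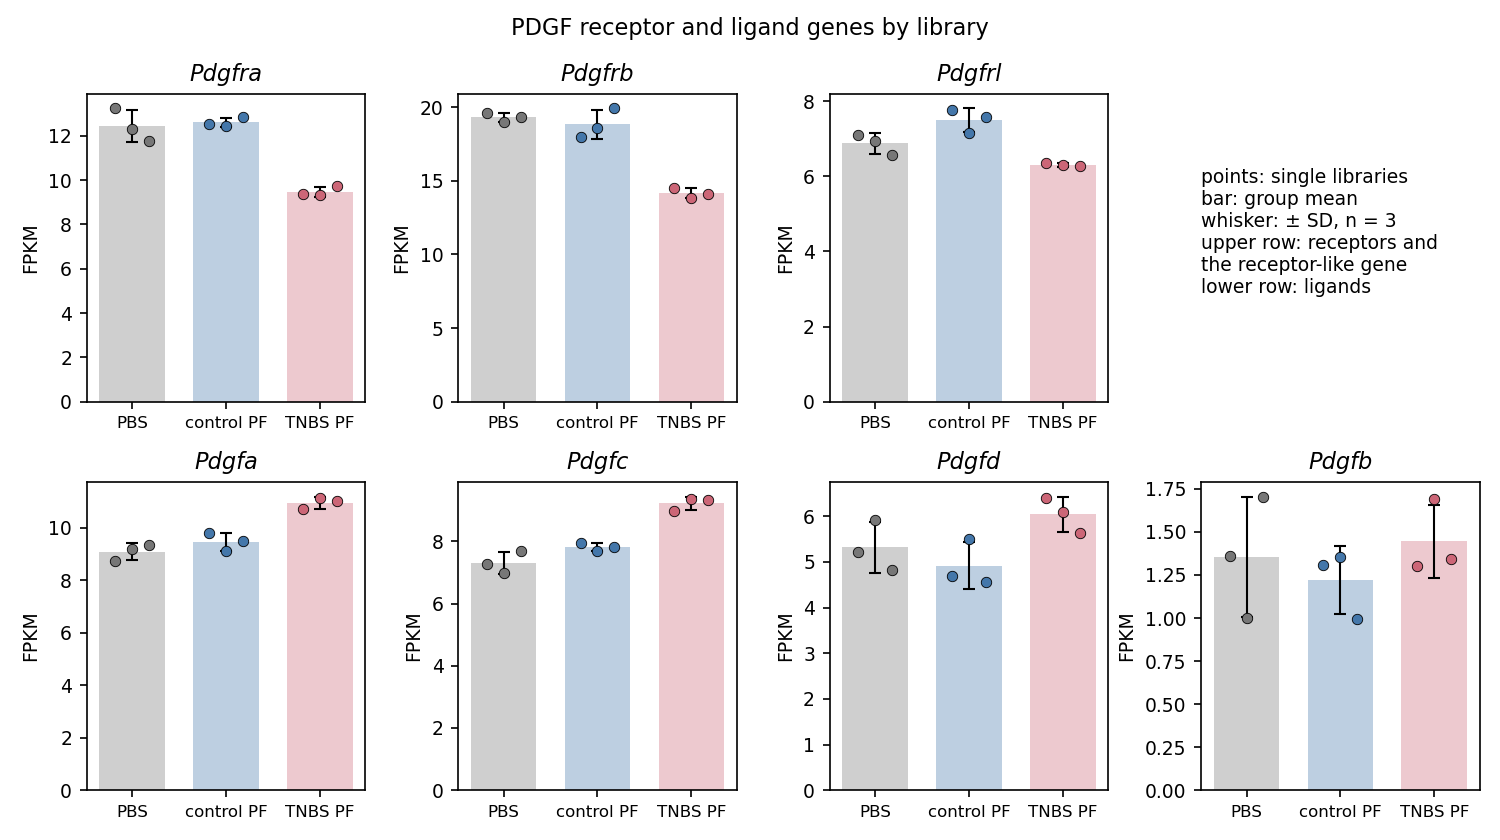
Levels of the 5 members and of Pdgfd and Pdgfrl in FPKM (vertical axes, each from 0), with 1 point a library, bars at the group mean and whiskers of 1 SD (n = 3). Pdgfra, Pdgfrb and Pdgfrl were lower in all 3 TNBS PF libraries than in every other library, Pdgfa and Pdgfc were higher, and the groups of Pdgfb overlapped.

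Pdgfra, the receptor for PDGF-A and PDGF-C, measured 12.5, 12.4 and 12.9 FPKM in the 3 control PF libraries. The TNBS PF libraries gave 9.37, 9.31 and 9.74 FPKM. The PBS libraries gave 13.2, 12.3 and 11.8 FPKM. The TNBS PF libraries were thus below all 6 others, and the control PF libraries lay within the range of the PBS libraries. The mean level was 9.47 ± 0.233 FPKM (SD, n = 3) with TNBS PF and 12.6 ± 0.218 FPKM with control PF, 1.33-fold lower, a difference of -0.38 ± 0.05 (SE) on the log2(FPKM + 1) scale used for all fitted differences. In bulk RNA, fewer cells that express a gene and less RNA of it per cell cannot be told apart.

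Pdgfrb (ENSMUSG00000024620, on chromosome 18), which binds PDGF-B and PDGF-D, measured 17.99, 18.6 and 19.9 FPKM with control PF. With TNBS PF it measured 14.5, 13.8 and 14.1 FPKM. With PBS it measured 19.6, 19.0 and 19.3 FPKM. The 3 TNBS PF libraries again lay below all 6 others, and the control PF and PBS libraries overlapped. The mean of 14.2 ± 0.335 FPKM with TNBS PF was 1.33-fold lower than that of 18.8 ± 0.992 FPKM with control PF, a log2 difference of -0.39 ± 0.04.

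Both receptors were also lower with TNBS PF than with PBS, a comparison described without a test because it uses the same TNBS PF libraries. For Pdgfrb the means were 14.2 FPKM with TNBS PF and 19.3 ± 0.304 with PBS, 1.36-fold lower, a log2 difference of -0.42 ± 0.04. For Pdgfra they were 9.47 and 12.4 ± 0.741 FPKM, 1.31-fold lower, a log2 difference of -0.36 ± 0.05. Control PF against PBS was tested in the limma fit, with Benjamini-Hochberg adjustment over all 10537 genes. The control PF libraries also entered the choice of the members, so this test is not independent of that choice. Neither receptor passed there, and the 95% interval of the log2 difference was -0.08 to 0.12 for Pdgfra (limma, adjusted p = 0.895) and -0.12 to 0.05 for Pdgfrb (limma, adjusted p = 0.753).

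The ratio of the receptors to each other overlapped between the groups. Pdgfra over Pdgfrb in FPKM was 0.670 ± 0.0256 with control PF, 0.670 ± 0.0215 with TNBS PF and 0.644 ± 0.0332 with PBS (SD, n = 3). In TNBS PF against control PF 39 of the 10537 tested genes had a lower log2 difference than Pdgfrb, and 53 had a lower one than Pdgfra. Against PBS 64 and 121 genes did. These counts are a description, since the members were chosen on these libraries.

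Among the ligands, Pdgfa encodes the chain of PDGF-A, which acts on receptor alpha. Its level was 9.80, 9.12 and 9.49 FPKM with control PF. It was 10.7, 11.2 and 11.0 FPKM with TNBS PF. It was 8.74, 9.18 and 9.36 FPKM with PBS. All 3 TNBS PF libraries exceeded every other library, and those of control PF and PBS overlapped. The mean of 11.0 ± 0.231 FPKM with TNBS PF was 1.16-fold above the 9.47 ± 0.339 FPKM of control PF, a log2 difference of 0.19 ± 0.04.

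Pdgfc encodes PDGF-C, which is secreted in a latent form and activated by proteolytic removal of its CUB domain. Its control PF libraries held 7.94, 7.68 and 7.81 FPKM. Its TNBS PF libraries held 8.98, 9.35 and 9.35 FPKM. Its PBS libraries held 7.27, 6.99 and 7.70 FPKM. The TNBS PF values were above all others, and the lowest control PF value lay just under the highest PBS value. The mean of 9.23 ± 0.214 FPKM with TNBS PF was 1.18-fold above the 7.81 ± 0.128 FPKM of control PF, a log2 difference of 0.22 ± 0.05.

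Pdgfb encodes PDGF-B, the ligand that recruits pericytes to vessels through receptor beta. It measured 1.31, 1.36 and 0.994 FPKM with control PF. It measured 1.30, 1.69 and 1.34 FPKM with TNBS PF. It measured 1.36, 1.00 and 1.70 FPKM with PBS. The 3 groups overlapped, and the coefficient of variation within a group was 14.8 to 25.9%. The means were 1.22 ± 0.197, 1.44 ± 0.214 and 1.35 ± 0.350 FPKM in the same order, and the difference between TNBS PF and control PF was 0.14 ± 0.11 on the log2 scale.

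Beside PBS, the mean of Pdgfc was 9.23 FPKM with TNBS PF and 7.32 ± 0.354 with PBS, 1.26-fold higher, a log2 difference of 0.30 ± 0.05. The means of Pdgfa were 11.0 and 9.09 ± 0.317 FPKM, 1.21-fold higher, a log2 difference of 0.25 ± 0.04. For Pdgfb the log2 difference was 0.06 ± 0.11. In the limma fit of control PF against PBS the 3 ligand genes did not pass the test. The 95% intervals were -0.04 to 0.15 for Pdgfa, -0.02 to 0.18 for Pdgfc and -0.31 to 0.16 for Pdgfb.

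None of the members passed the test with control PF against PBS, where 2.15% of all tested genes were called. In that comparison 0 members were called by limma on FPKM, 0 by limma voom on recovered fragments, and 0 had an unadjusted p under 0.05. A count of 0 among 5 is near that share. The control PF libraries also entered the choice of the members, so nothing is read from these counts. In TNBS PF against control PF the groups of 2 members did not overlap with TNBS PF higher and those of 2 did not overlap with TNBS PF lower. There the groups of 31.8% of tested genes did not overlap and 10.6% of genes were called. Against PBS the groups of 4 members did not overlap with TNBS PF, where those of 35.3% of tested genes did not and 16.7% were called. Nothing is read from these shares, since the members were chosen on the TNBS PF and control PF libraries. With control PF against PBS the groups of all 5 members overlapped, while those of 18.6% of tested genes did not. All comparisons share groups, so their values are not independent.

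**Figure D2:**
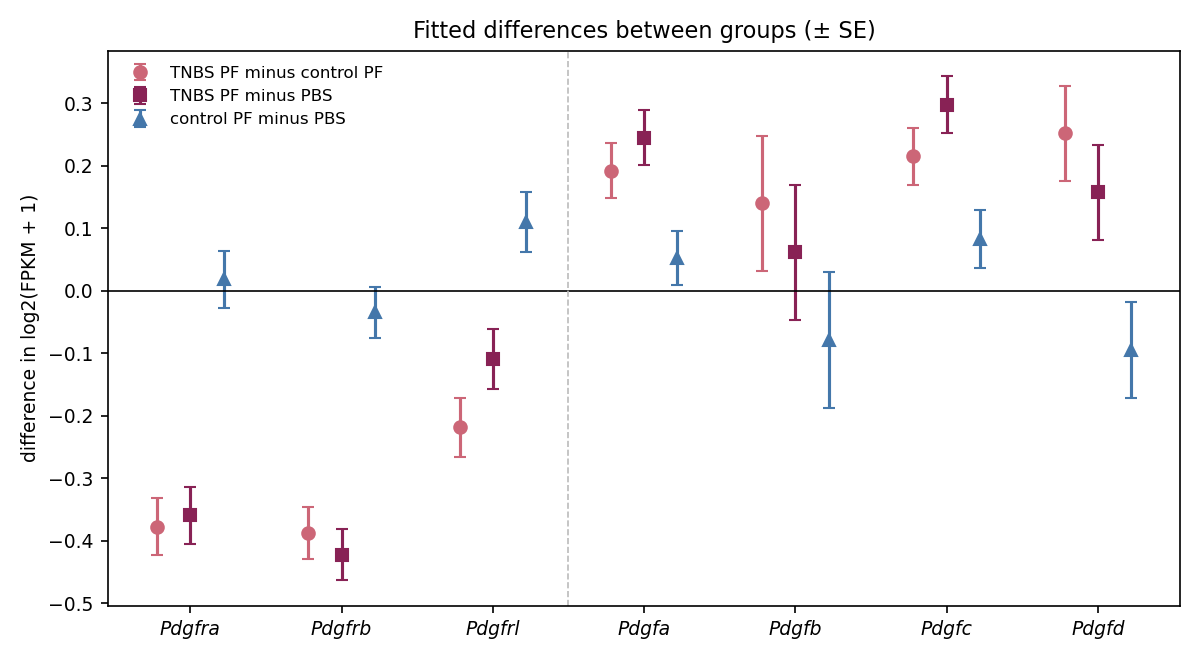
Fitted differences in log2(FPKM + 1) (vertical axis) with their standard errors for the 3 comparisons, receptor genes to the left of the dashed line and ligand genes to the right. Pdgfra and Pdgfrb lie near -0.4 for both comparisons with TNBS PF, and the differences of control PF from PBS for the 5 members lie between -0.08 and 0.08.

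In the TNBS PF libraries the summed receptor level lay below, and the summed ligand level above, that of every other library. Pdgfra plus Pdgfrb came to 31.5 ± 1.19 FPKM with control PF, 23.6 ± 0.426 with TNBS PF and 31.8 ± 0.953 with PBS. Pdgfa, Pdgfb and Pdgfc together came to 18.5 ± 0.476 FPKM with control PF, 21.6 ± 0.609 with TNBS PF and 17.8 ± 0.860 with PBS. Receptor over ligand level was 1.60 to 1.79 in the control PF libraries, 1.04 to 1.14 in the TNBS PF libraries and 1.66 to 1.89 in the PBS libraries. The makeup of the ligand sum stayed near the same, with Pdgfa at 51.2, 50.7 and 51.2% and Pdgfc at 42.2, 42.7 and 41.2% in control PF, TNBS PF and PBS. These sums are built from the members and add no test.

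**Figure D3:**
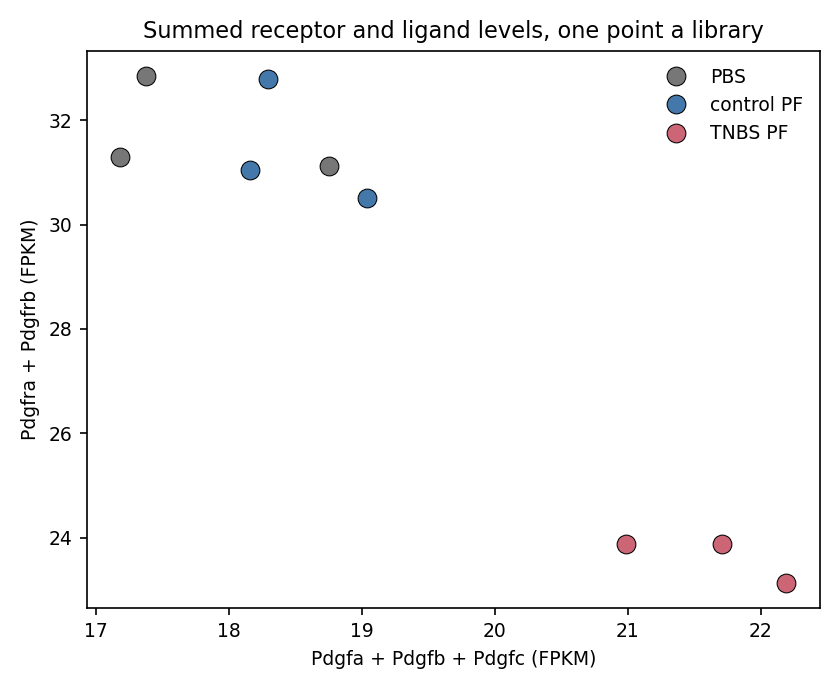
Each point is 1 library, with the summed FPKM of the ligand genes Pdgfa, Pdgfb and Pdgfc on the horizontal axis and of the receptor genes Pdgfra and Pdgfrb on the vertical axis, neither axis starting at 0. The 3 TNBS PF libraries sit at 23.1 to 23.9 FPKM of receptor, below the 30.5 to 32.8 FPKM of the 6 others.

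The other genes of the family, which are not members, were Pdgfd and Pdgfrl. Pdgfrl encodes a secreted receptor-like protein with immunoglobulin domains and no kinase. It fell by 0.22 ± 0.05 with TNBS PF against control PF (limma, adjusted p = 0.0109), from 7.498 ± 0.315 to 6.30 ± 0.0410 FPKM. Its level with PBS, 6.88 ± 0.270 FPKM, lay between them, and neither comparison with PBS passed (limma, adjusted p = 0.286 and 0.140). Pdgfd, the ligand of receptor beta, measured 4.92 ± 0.513 FPKM with control PF, 6.04 ± 0.388 with TNBS PF and 5.32 ± 0.559 with PBS. Its TNBS PF libraries were above all control PF libraries, but the log2 difference of 0.25 ± 0.08 did not pass (limma, adjusted p = 0.0528). Over the 18 alternative settings its adjusted p ran from 0.0230 to 0.174 and passed in 8. With Pdgfd counted as a ligand the receptor sum was 0.818 to 0.873 of the ligand sum with TNBS PF and 1.29 to 1.45 of it in the other libraries.

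Genes that process or bind PDGF formed a list of 12, of which 9 were tested. With TNBS PF against control PF 0 rose and 2 fell, and the list median was -0.05 against -0.01 over all tested genes. Of all tested genes 10.6% were called in that comparison, 16.7% with TNBS PF against PBS and 2.15% with control PF against PBS. The counts of this and the further lists are to be read beside these shares. Nrp1, the coreceptor neuropilin 1, fell by 0.29 ± 0.06, from 2.46 to 1.83 FPKM (limma, adjusted p = 0.00659). Plat, the tissue plasminogen activator, which can activate PDGF-C, fell by 0.20 ± 0.05, from 18.2 to 15.8 FPKM (limma, adjusted p = 0.0175). The Plat call was lost without control PF library 2 (adjusted p = 0.0706), without TNBS PF library 1 (adjusted p = 0.0792) or with no filter on low values (adjusted p = 0.0516). Against PBS 4 of the 9 fell and 1 rose with TNBS PF, with a list median of -0.17. Nrp1 fell by 0.48, Plat by 0.32, Nrp2 by 0.28 and Sparc, a matricellular protein that binds PDGF-B, by 0.17, and Pdap1 rose by 0.13. The Pdap1 call was lost in 8 of 18 alternatives, among them without TNBS PF library 2 or 3 or PBS library 1 or 2 (adjusted p from 0.0534 to 0.111). Sparc alone passed with control PF against PBS (limma, adjusted p = 0.0470), at a log2 difference of -0.12, a call lost in 14 of 18 alternatives, with adjusted p between 0.0695 and 0.158 when any 1 library other than PBS library 2 was left out.

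Of 36 effectors of PDGF receptor signalling, all tested, 1 rose and 3 fell with TNBS PF against control PF, and the list median was -0.02. That is near the share of all tested genes called there, 10.6%. Pik3r1, a regulatory subunit of phosphoinositide 3-kinase that docks on activated receptors, fell by 0.24 ± 0.05 (limma, adjusted p = 0.0110). Stat3, a transcription factor activated by tyrosine phosphorylation, fell by 0.18 ± 0.04 (limma, adjusted p = 0.00625), from 15.5 to 13.5 FPKM. Shc1, an adaptor that links receptors to Ras, fell by 0.16 ± 0.03 (limma, adjusted p = 0.00567), from 48.9 to 43.6 FPKM. Pik3cb, a catalytic subunit of phosphoinositide 3-kinase, rose by 0.20 ± 0.05 (limma, adjusted p = 0.0180). The Pik3r1 call was lost without control PF library 3 or TNBS PF library 3 (adjusted p = 0.0520 and 0.0537). The Pik3cb call was lost without control PF library 1 or 3 or TNBS PF library 2 or 3 (adjusted p from 0.0546 to 0.0771). Against PBS 4 effectors rose and 5 fell with TNBS PF, where 16.7% of all tested genes were called. Pik3r3, another regulatory subunit of phosphoinositide 3-kinase, fell by 0.42 and Pik3r1 fell by 0.34. With control PF against PBS 0 of the 36 were called by limma on FPKM, beside 2.15% of all tested genes. In that comparison 6 had an unadjusted p under 0.05, and limma voom on recovered fragments called 3.

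Negative regulators of receptor and ERK signalling formed a list of 26, of which 25 were in the table and 20 tested. With TNBS PF against control PF 3 rose and 0 fell, where 10.6% of all tested genes were called, and the list median was 0.01. Dusp5, a nuclear phosphatase of ERK, rose by 0.48 ± 0.08, from 6.65 to 9.70 FPKM (limma, adjusted p = 0.00243). Errfi1 rose by 0.27 ± 0.04, from 89.7 to 108 FPKM (limma, adjusted p = 0.000449), and is best known as a feedback inhibitor of the EGF receptor family rather than of PDGF receptors. Dusp6, a cytoplasmic phosphatase of ERK, rose by 0.21 ± 0.05 (limma, adjusted p = 0.0134), a call lost without control PF library 3 or TNBS PF library 1 or 3 (adjusted p from 0.0524 to 0.0537). Against PBS the genes that rose with TNBS PF were Errfi1 by 0.47, Dusp5 by 0.37 and Dusp6 by 0.24, and 0 fell. Of all tested genes 16.7% were called in that comparison, so the list count is near that share. Socs3, an inhibitor of cytokine signalling, rose by 0.36 with control PF against PBS and Errfi1 rose by 0.20 (limma, adjusted p = 0.0226 and 0.0106). The Errfi1 call was lost with no filter on low values or no mean-variance trend (adjusted p = 0.0506 and 0.0576). The Socs3 call was lost in 5 of 18 alternatives, among them without any 1 of the 3 control PF libraries (adjusted p from 0.0571 to 0.0771).

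Genes known to be induced early by PDGF or serum formed a list of 18, of which 15 were tested. With TNBS PF against control PF 3 rose and 0 fell, where 10.6% of all tested genes were called. The list median was 0.11 against -0.01 over all tested genes. Myc, a transcription factor of growth, rose by 0.30 ± 0.03, from 32.3 to 40.0 FPKM (limma, adjusted p = 0.000197). Egr1, a zinc finger factor, rose by 0.15 ± 0.04 (limma, adjusted p = 0.0217). The Egr1 call was lost in 5 of 18 alternatives, among them without control PF library 1 or 2 or TNBS PF library 1 or 3 (adjusted p from 0.0507 to 0.0975). Srf, the serum response factor, rose by 0.16 ± 0.05 (limma, adjusted p = 0.0497), a call lost in 12 of 18 alternatives, among them without PBS library 1 or any 1 of the control PF or TNBS PF libraries (adjusted p from 0.0504 to 0.172). Egr1 had fallen by 0.25 ± 0.04 with control PF against PBS (limma, adjusted p = 0.00413), so its PBS level of 31.9 FPKM was above both fluid groups. Against PBS 5 genes rose and 2 fell with TNBS PF, with a list median of 0.11, where 16.7% of all tested genes were called. Has2, the hyaluronan synthase, rose by 0.32, Fosl1 by 0.32, Myc by 0.25, and the chemokine genes Ccl7 and Ccl2 fell by 0.20 and 0.13. Their calls were lost in 11 and 12 of 18 alternatives, in both cases without TNBS PF library 1 or 2, PBS library 2 or 3 or any 1 control PF library (adjusted p from 0.0554 to 0.175). The Fosl1 call (limma, adjusted p = 0.0469) was lost in 9 of 18 alternatives. Among them were those without control PF library 3, PBS library 2 or 3 or any 1 TNBS PF library (adjusted p from 0.0571 to 0.156).

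**Figure D4:**
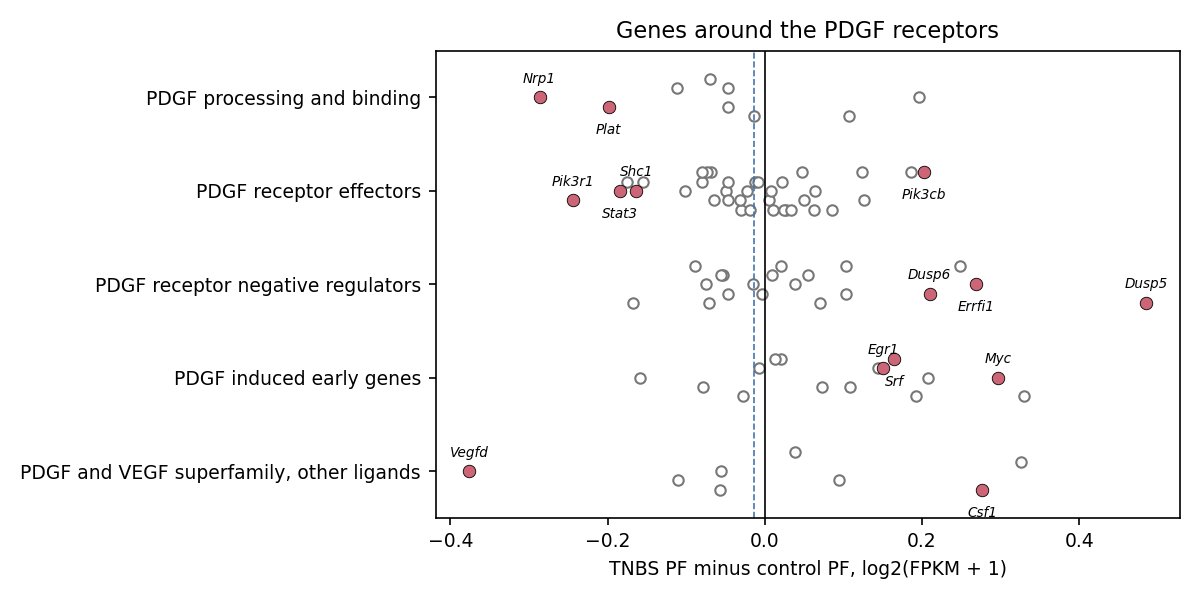
Differences between TNBS PF and control PF in log2(FPKM + 1) (horizontal axis) for the tested genes of 5 lists, 1 point a gene, with filled and named points for genes that passed the test and a dashed line at the median of all tested genes, -0.01. The largest rise is that of Dusp5 at 0.48 and the largest fall that of Vegfd at -0.38.

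Ligands of the VEGF branch of the superfamily and of receptors related to the PDGF receptors formed a further list of 10, of which 9 were in the table and 8 tested. With TNBS PF against control PF 1 rose and 1 fell, where 10.6% of all tested genes were called, and the list median was -0.01. Vegfd, a ligand of lymphatic growth, fell by 0.38 ± 0.04, from 15.3 to 11.6 FPKM (limma, adjusted p = 0.000124). Csf1, the macrophage colony-stimulating factor, rose by 0.28 ± 0.05, from 100.2 to 122 FPKM (limma, adjusted p = 0.00211). Against PBS Vegfd fell by 0.34 and Vegfa rose by 0.27 with TNBS PF. Vegfa rose by 0.23 with control PF against PBS (limma, adjusted p = 0.0136). The Vegfa call was lost in 4 of 18 alternatives, among them without control PF library 1 or PBS library 3 (adjusted p = 0.0677 and 0.0546). Vegfb rose by 0.24 in the same comparison, a call lost in 10 of 18 alternatives. Among them were those without any 1 control PF library, TNBS PF library 1 or PBS library 1 or 2 (adjusted p from 0.0506 to 0.133). With TNBS PF against PBS Vegfb rose by 0.18, a call lost in 8 of 18 alternatives. Among them were those without TNBS PF library 3 or PBS library 1 or 2 (adjusted p from 0.0612 to 0.146).

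Other receptor tyrosine kinase genes that passed the test moved in both directions. Of 56 further receptor tyrosine kinase genes 23 were tested. With TNBS PF against control PF 2 rose and 2 fell, where 10.6% of all tested genes were called. The list median was 0.00063 on the log2 scale. Epha2, an ephrin receptor, rose by 0.43 ± 0.04, from 21.8 to 29.6 FPKM (limma, adjusted p = 7.90e-05). Axl, a receptor for Gas6 and the most abundant of the 25 tested receptor genes at a mean of 248 FPKM, rose by 0.15 ± 0.03 (limma, adjusted p = 0.00278). Erbb3 fell by 0.30, a call lost in 6 of 18 alternatives, among them without control PF library 2 or 3 or any 1 TNBS PF library (adjusted p from 0.0509 to 0.106). Tyro3 fell by 0.20, a call lost in 9 of 18 alternatives, among them without any 1 control PF library or TNBS PF library 1 or 2 (adjusted p from 0.0713 to 0.131). Among the 25, Pdgfrb and Pdgfra ranked 8 and 10 by mean level. On the log2(FPKM + 1) scale they had the lowest differences between TNBS PF and control PF. Against PBS Pdgfrb was the lowest on that scale and Pdgfra the third lowest, after Erbb3 at -0.37. Both orders are a description, since the members were chosen on these libraries. In plain FPKM Erbb3, with a mean of 1.52, fell more than either receptor, 1.43-fold against control PF and 1.54-fold against PBS. Epha2, Styk1 and Axl rose and Erbb3 fell with TNBS PF against PBS. The Styk1 call was lost without TNBS PF library 2 or 3 or PBS library 1 (adjusted p from 0.0727 to 0.0836). With control PF against PBS 0 of the 23 were called by limma on FPKM, beside 2.15% of all tested genes. In that comparison 2 had an unadjusted p under 0.05, and limma voom on recovered fragments called 0.

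**Figure D5:**
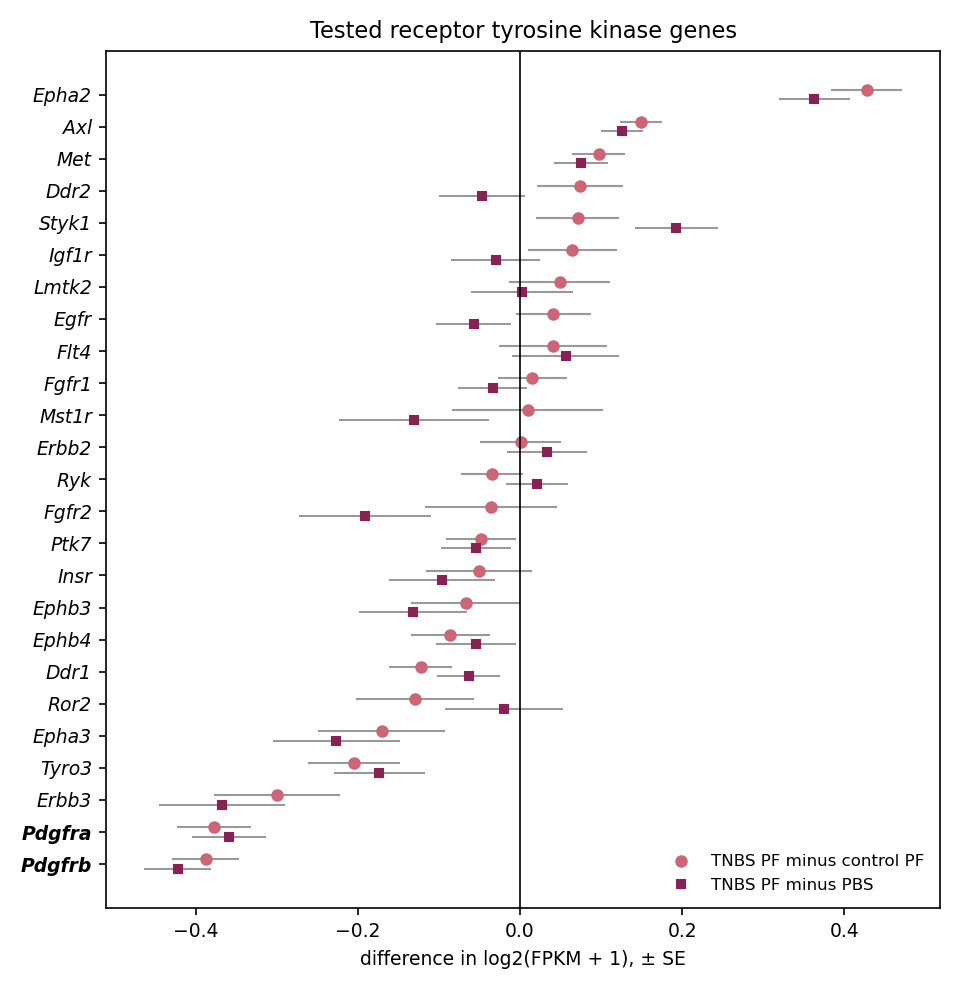
Differences in log2(FPKM + 1) with their standard errors (horizontal axis) for the 25 tested receptor tyrosine kinase genes, TNBS PF minus control PF as circles and TNBS PF minus PBS as squares, ordered by the first. Pdgfrb and Pdgfra lie at the bottom with -0.39 and -0.38, and Epha2 at the top with 0.43.

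The genes whose pattern was most like each member were ranked by the Pearson correlation of log2(FPKM + 1) over the 9 libraries, among 10327 tested genes with an established symbol. The 9 points share their 3 groups, and the values are given as a description. The members were chosen with their difference between TNBS PF and control PF known, so correlations between members are not independent of that choice. For Pdgfra the first were Igsf10 (r = 0.992), Kif11 (0.989) and Ctsd (0.984). Igsf10 measured 6.87 ± 0.347 FPKM with control PF, 4.27 ± 0.109 with TNBS PF and 6.97 ± 0.464 with PBS. For Pdgfrb they included Capn6 (r = 0.988) and Zfhx4 (0.986). Capn6 measured 18.7 ± 0.395, 15.5 ± 0.398 and 18.5 ± 0.208 FPKM in the same order of groups. Each receptor was itself among the genes nearest to the other, Pdgfrb in rank 16 for Pdgfra and Pdgfra in rank 24 for Pdgfrb (r = 0.963).

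For Pdgfa the most similar genes were Ftsj3 (r = 0.983), Mthfd2 (0.978) and Atp5b (0.975). Pdgfc was in rank 14 for Pdgfa and Pdgfa in rank 26 for Pdgfc (r = 0.962). For Pdgfc they were Gpt2 (r = 0.986), Lrrc59 (0.982) and Asns (0.982). Gpt2 measured 16.7 ± 0.308 FPKM with control PF, 20.9 ± 0.603 with TNBS PF and 14.9 ± 0.997 with PBS, and Asns measured 99.4 ± 2.36, 133 ± 6.51 and 92.7 ± 3.63. For Pdgfb the highest values were lower, 0.929 for Hyls1, 0.919 for Anxa2 and 0.914 for Pla2g12a. With Spearman correlation in place of Pearson, 8, 7, 17, 20 and 17 of the first 50 genes were shared for Pdgfra, Pdgfrb, Pdgfa, Pdgfb and Pdgfc.

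In the authors' deposited table the log2 fold changes from control PF to TNBS PF were -0.39 for both Pdgfra and Pdgfrb, 0.23 for Pdgfa, 0.26 for Pdgfb and 0.26 for Pdgfc. The sources used here do not say how these were computed, so they are not read against the fitted differences in log2(FPKM + 1). The authors' deposited table called none of the 5 in any comparison. Its 61 calls between these groups all lay at 1.00 or more in absolute log2 fold change.

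The sources used here do not say whether reads were counted by strand. Exons of Pdgfra share 456 bases with Gm42802 and 166 with Gm42803 on the other strand, exons of Pdgfa share 813 bases with 6330403L08Rik, and exons of Pdgfc share 147 bases with Gm16000. Those 4 genes are not among the rows used here, so reads of them and of the members could not be told apart if strand was ignored.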

How the data were processed

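RNA of 9 libraries was analysed, 3 each of control PF, TNBS PF and PBS. The deposited FPKM of 21959 genes were computed by the authors, per the file headers. Reads were trimmed with cutadapt 1.15 and the build was mm10, per the submitters' processing notes, while the sources used here do not name the aligner, counter or strand. The deposited log2 fold changes and p-values are the authors' own, per the file headers, and were not used for tests. From the FPKM and GENCODE M21 exon lengths, whole fragments were recovered for 97.2 to 97.3% of values under 1000 fragments, within a tolerance of 0.01, which gives the depth of each library. FPKM were transformed as log2(FPKM + 1), and the 10537 genes with at least 1 FPKM in at least 3 libraries were fitted together in limma 3.58.1 under R 4.3.3, using moderated variances with a mean-variance trend. P-values received the Benjamini-Hochberg adjustment over all tested genes, and 0.05 was the threshold. The procedure was tested on simulated data. The members, gene lists and naming rule were chosen with earlier results of these data known. A test of the members in TNBS PF against PBS was planned, and its p-values are not printed because it reuses the TNBS PF libraries on which they were chosen. The test in control PF against PBS reuses the control PF libraries, which also entered that choice, and its p-values are printed with that limit. Named genes are the family, up to 4 genes a list and comparison by largest absolute difference among those past the threshold (otherwise the smallest p), and the 3 genes most correlated with each member. Some genes that this rule names are not reported here. The genes Pdap1, Ccl2 and Ccl7 were named after their values were seen. Alternatives changed the pseudocount, filter, scaling, model and libraries used.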

Additional observations from a re-analysis of the deposited data

How the results depend on the processing

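The counts of genes called, the members' differences and the fitted difference of each gene named from a list were recomputed under 18 alternatives, and the correlation ranks and marker sums were not: a pseudocount of 0.1, no filter on low values, median-ratio, TPM and quantile scaling, a fit of the compared groups alone, no mean-variance trend, limma voom on recovered fragments, the replicate number as a block, and each of the 9 libraries left out. In all 18, 0 members were called with control PF against PBS. As a description, the log2 difference of TNBS PF from PBS ran from -0.40 to -0.32 for Pdgfra, -0.46 to -0.40 for Pdgfrb, 0.22 to 0.27 for Pdgfa, 0.27 to 0.33 for Pdgfc and -0.05 to 0.17 for Pdgfb. Between TNBS PF and control PF the log2 difference ran from -0.41 to -0.36 for Pdgfra, -0.42 to -0.35 for Pdgfrb, 0.17 to 0.21 for Pdgfa, 0.20 to 0.24 for Pdgfc and 0.06 to 0.26 for Pdgfb, whose groups overlapped except after quantile normalization. The number of genes called with control PF against PBS, 227 in the main setting, was 103 with no filter, 117 with no trend and 374 with voom, and that of the genes of the other lists, 9 of 133, was 3 (of 198 then tested), 4 and 17. The cause was not tested. Without 1 library the calls ranged from 661 to 1255 for TNBS PF against control PF (1117 with all), 115 to 311 for control PF against PBS, and 1148 to 1735 for TNBS PF against PBS (1758 with all). Those more than 1.5 times lower came without control PF library 2 or 3 or any 1 TNBS PF library in the first (733, 708, 691, 661 and 676), without control PF library 1, 2 or 3 or PBS library 3 in the second (115, 130, 124 and 142), and without TNBS PF library 3 in the last. For the list genes the ranges were 21 to 36, 4 to 9 and 31 to 40, and the second fell to 4 and 5 without control PF library 1 and 2. Median-ratio scaling changed the split of calls in TNBS PF against control PF from 543 higher and 574 lower to 679 and 442. In TNBS PF against PBS it changed 822 higher and 936 lower to 1047 and 762, and TPM scaling gave 624 and 1153. Same-numbered libraries did not deviate together (correlations of their deviations from the group means between -0.0978 and 0.0746), so the numbers were not read as pairs. With the replicate block 906, 169 and 1537 genes were called in the 3 comparisons, and 0 members were called with control PF against PBS. The ratio of Pdgfra to Pdgfrb in recovered fragments was 1.23 ± 0.0469 with control PF, 1.23 ± 0.0393 with TNBS PF and 1.18 ± 0.0607 with PBS. Fragments were recovered from FPKM and exon length, so this is the FPKM ratio times a fixed factor and no separate check. Depth limits Pdgfb most, at 75 to 180 fragments a library.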
